A study of Homo sapiens with 14 samples.

Results

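The regions described here are the genomic sites at which phosphorylated JUN (p-JUN) was called in both libraries labelled stiff and in neither library labelled soft. They were chosen by the peak calls themselves: the 4 p-JUN peak lists were joined wherever peaks shared at least 1 bp on the standard chromosomes, which gave 61411 regions, and 1690 of these met the rule. The share of all p-JUN regions called in this way was 2.75%, and the opposite pattern (both soft lists, neither stiff list) was met by 1066 regions, or 1.74%. Another 40433 regions were called in all 4 lists. Since the calls on soft and stiff matrix chose the members, every p-JUN value below is a description of what was selected and carries no test.

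The cells were LX-2, an immortalised human hepatic stellate cell line, of wild-type genotype in every group. They had spent 2 days on matrix that was either soft or stiff before profiling by CUT&Tag, in which an antibody guides a transposase to the chromatin it binds. There were 2 p-JUN, 2 H3K4me3 and 2 H3K27me3 libraries per matrix, and for H3K27ac 1 merged peak list per matrix. The titles of the p-JUN libraries labelled stiff carry a different substrate code (TCP) from the histone libraries labelled stiff (40K), so the p-JUN and histone comparisons may not rest on the same stiff substrate. The peak lists held 48163 to 54168 p-JUN peaks. The lists do not give total fragment numbers. The lowest local background of any peak lay between 2.25 and 2.62 fragments, and the median summit between 60 and 64. The study states that its sequencing had at least 2 biological replicates, but nothing in the labels says whether these libraries came from separate cultures. The p-values below therefore measure only the spread between these libraries, part of which may be technical. As a check of the cell type, H3K4me3 lay within 1 kb of a start site in all 4 libraries for 5 of 8 stellate cell or fibroblast markers (PDGFRB, COL1A1, ACTA2, TAGLN and VIM) and had no peak there in any library for COL1A2, DCN and LUM. The 5 hepatocyte and 4 macrophage markers had none in any library. Of 4 endothelial markers KDR carried it in all 4 libraries and PECAM1, CDH5 and VWF in none, and of 3 cholangiocyte markers EPCAM carried it in all 4 and KRT7 and KRT19 in none.

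JUN is a subunit of AP-1, a family of dimeric leucine zipper factors built from JUN, FOS, ATF and MAF proteins. Kinases of the JNK family phosphorylate its activation domain, and the dimers bind a short palindromic site, most often in enhancers away from promoters. AP-1 often shares these enhancers with TEAD factors, the DNA-binding partners of the mechanically regulated coactivators YAP and TAZ, and in stellate cells both are linked to the shift from the quiescent, vitamin A-storing state to the matrix-producing myofibroblast.

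The sequences below show what these sites look like. Each runs from 50 bases before to 50 bases after the stronger stiff summit on the plus strand of GRCh37 (hg19), with capitals marking a match to the AP-1 site (TGACTCA or TGAGTCA), the related CRE (TGACGTCA) or the TEAD site (GGAATG) on either strand. The first 4 are among the best ranked members with an AP-1 site, the next 2 are the best ranked without one, the next 2 are among the best ranked with a TEAD site and no AP-1 site, and the last holds both. The TEAD sets were added after the motif shares had been seen.
CAMK2D intron, chr4:114460745-114460845: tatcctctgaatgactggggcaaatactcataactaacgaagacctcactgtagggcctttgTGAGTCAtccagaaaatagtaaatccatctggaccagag
G3BP2 promoter, chr4:76643862-76643962: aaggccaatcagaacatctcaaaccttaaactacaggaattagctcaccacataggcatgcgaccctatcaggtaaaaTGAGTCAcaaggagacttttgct
MAP3K7 exon, chr6:91255264-91255364: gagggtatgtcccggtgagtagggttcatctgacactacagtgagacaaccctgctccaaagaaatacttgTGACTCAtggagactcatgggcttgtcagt
Intergenic, nearest to PPM1B, chr2:44345482-44345582: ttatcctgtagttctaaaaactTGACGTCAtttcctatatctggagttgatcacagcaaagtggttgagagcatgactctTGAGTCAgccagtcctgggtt
MRC1 intron, chr10:18124738-18124838: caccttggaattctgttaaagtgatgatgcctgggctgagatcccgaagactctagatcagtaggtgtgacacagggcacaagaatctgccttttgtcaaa
Intergenic, nearest to CD109, chr6:74652468-74652568: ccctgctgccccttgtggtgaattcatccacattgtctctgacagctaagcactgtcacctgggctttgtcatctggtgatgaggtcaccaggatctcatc
ARAP3 intron, chr5:141033994-141034094: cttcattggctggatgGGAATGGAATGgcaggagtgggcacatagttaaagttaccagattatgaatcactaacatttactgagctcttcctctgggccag
ANKRD18B intron, chr9:33543626-33543726: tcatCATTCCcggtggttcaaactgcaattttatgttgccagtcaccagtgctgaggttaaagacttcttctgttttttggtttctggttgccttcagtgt
Intergenic, nearest to TLE3, chr15:70218490-70218590: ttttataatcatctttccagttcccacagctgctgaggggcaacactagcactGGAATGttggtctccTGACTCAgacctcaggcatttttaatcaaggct

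Most stiff-only sites were small. The number of fragments at a summit was recovered from the deposited fold and −log10 p. In stiff replicate 1 the members' lowest, median and highest summits held 14, 28 and 186 fragments, against a median of 61 over all p-JUN regions called in that library. In stiff replicate 2 the same values were 14, 33 and 214, against a median of 64. By −log10 q, the median member stood at 84.1% of the way down the list of stiff replicate 1 and at 77.9% of the list of stiff replicate 2, where 100% is the weakest peak. Both libraries therefore placed the members mostly in the lower part of the list. This was not particular to members. Soft-only regions had median summits of 31 fragments in soft replicate 1 and 27 in soft replicate 2. Their medians stood at 85.3% and 88.1% of the way down those lists. Across the 1690 members the summit fragments of the libraries followed each other with a Spearman coefficient of 0.837, a description over regions that share local background and libraries, and stiff replicate 2 was the higher in 1217 members (72.0%).

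**Figure D1:**
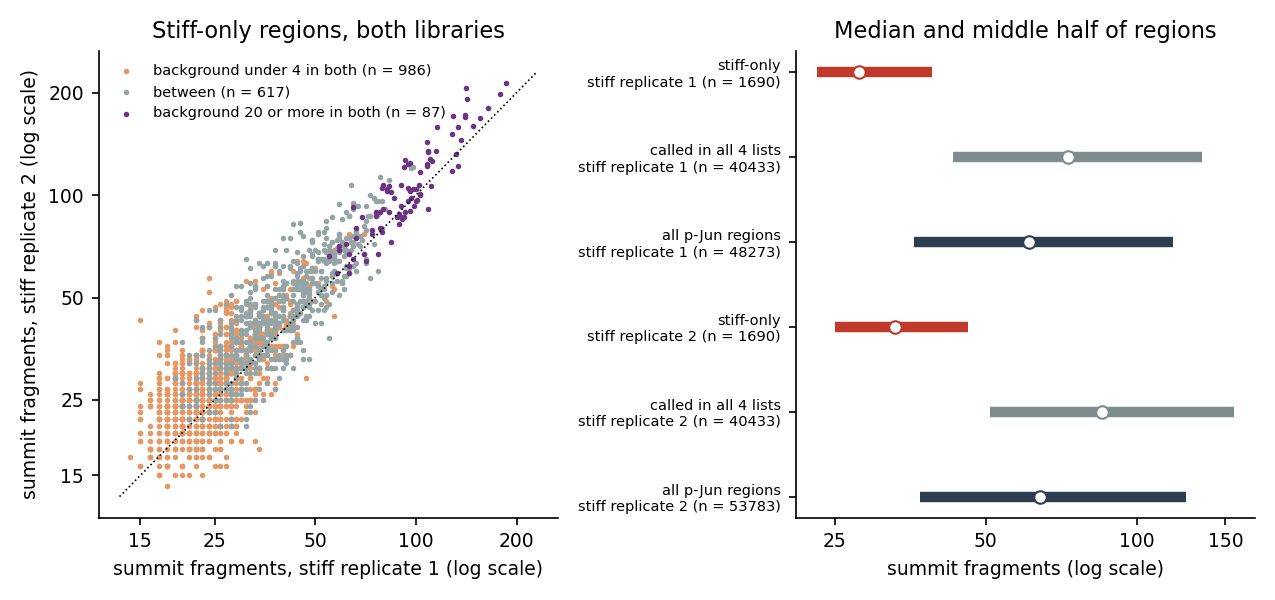
Left, summit fragments of each of the 1690 stiff-only regions in stiff replicate 1 (x axis) and stiff replicate 2 (y axis), both on log scales, coloured by local background in fragments, with a dotted line of equality; right, the median (circle) and middle 50% (bar) of summit fragments for stiff-only regions, regions called in all 4 lists and all p-JUN regions of each stiff library. The stiff-only medians of 28 and 33 fragments lie below those of regions called in all 4 lists, 73 and 85.

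The surroundings of the members fell into different kinds. In 986 of them (58.3%, 95% Wilson interval 56.0 to 60.7, which like those below covers counting error only) the local background was under 4 fragments in both stiff libraries. These low-background sites had median summits of 24 and 27 fragments. At the other end, 87 members (5.15%) stood on a background of at least 20 fragments in both, with a median summit of 93 fragments in stiff replicate 1. Sites of the second kind lay beside other strong p-JUN signal. An intergenic region nearest to MSX2, a homeobox gene of limb and skull development, held 178 and 198 fragments over a background of 89.6 and 96.0, and a soft peak began 318 bp away. Over all members the nearest soft peak was a median of 9.54 kb away. It was within 1 kb in 131 members (7.75%), within 5 kb in 546 (32.3%) and more than 50 kb away in 211 (12.5%).

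A region that was not called on soft matrix need not be free of p-JUN there. Among members, the weaker stiff peak had a −log10 q of at least 5.37, and in 484 of 1690 (28.6%) it was under 10. Just outside the rule were 3275 regions called in both stiff lists and 1 soft list. Their soft peaks had a lowest −log10 q of 5.26, a median of 14.5 and a median summit of 31 fragments, so these near misses were close in height to the members. At a local background of 3 to 3.5 fragments, 5% of the peaks of each soft library had summits of 20 fragments or fewer. Both stiff summits reached at least 40 fragments in 391 members, counted at any local background. The level of 20 fragments does not apply to those on a higher background. The 986 members with a background under 4 in both stiff libraries had median summits of 24 and 27 fragments. The signal at uncalled positions is not part of a peak list, and no soft level can be given for a member. In these bulk libraries, binding in fewer cells and less binding per cell cannot be told apart.

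The stiff-only sites lay away from promoters. Of the 1690 summits, 75 (4.44%, 3.56 to 5.53) were within 1 kb of the start of a protein-coding transcript, 727 (43.0%) were in introns, 76 (4.50%) in exons and 812 (48.0%) between genes. Among all p-JUN regions the promoter share was 17.1% and among soft-only regions 20.4%. The median distance from a member's summit to the nearest protein-coding start site was 41300 bp, compared with 24400 bp over all p-JUN regions and 19100 bp for soft-only regions. Members were also narrower than all p-JUN regions and poorer in G and C. Their median length was 366 bp against 573 bp over all p-JUN regions. Soft-only regions also had a median length below 573 bp and close to that of members, so narrowness was not particular to members. The median GC content within 100 bp of the summit was 43.3% for members, against 48.3% over all p-JUN regions and 49.8% for soft-only regions. Counting start sites within 2.5 kb gave promoter shares of 8.34% for members and 20.9% for all regions.

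**Figure D2:**
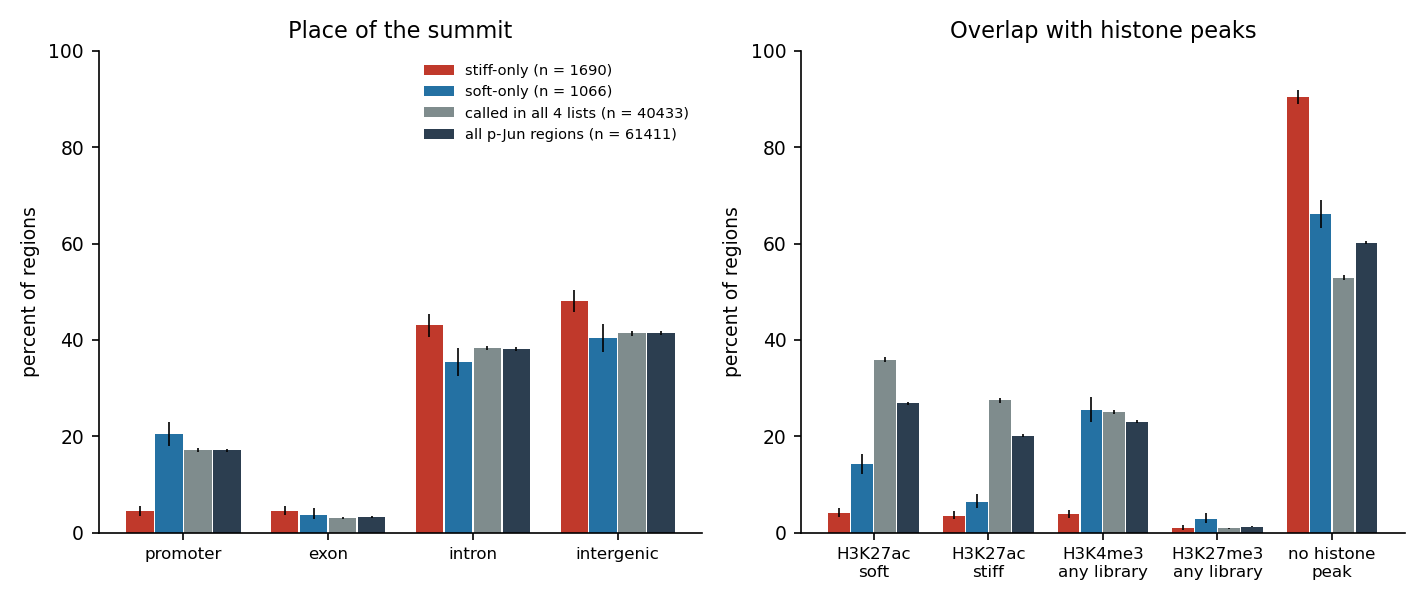
Percent of regions (y axis, bars with 95% Wilson intervals, which cover counting error only) by the place of the summit (left) and by overlap with histone peaks (right), for stiff-only regions, soft-only regions, regions called in all 4 lists and all p-JUN regions. The red stiff-only bars are lowest for promoters, at 4.44%, and highest for regions with no histone peak, at 90.5%.

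The promoters that did hold a stiff-only site were mostly unmarked in the H3K4me3 lists. Of the 75, 45 overlapped an H3K4me3 peak in no library (interval 48.7% to 70.3%) and 26 (34.7%) in all 4, whereas over all 10497 p-JUN regions at promoters these shares were 14.2% and 81.0%. The best ranked was at G3BP2, which encodes a stress granule protein, 895 bp from a start site, with summits of 64 and 107 fragments. The next was at KRTAP4-16, a hair keratin-associated protein gene, with 156 and 168 fragments over a background of 53.7 and 63.1. Neither overlapped an H3K4me3 peak. Named after their values were seen, PPARG, the nuclear receptor linked to stellate cell quiescence, held one 178 bp from a start site with 49 and 66 fragments and no H3K4me3. CFL1, which encodes the actin-severing protein cofilin, held one 203 bp from its start with 47 and 52 fragments in a region that carried H3K4me3 in all 4 libraries and also overlaps MUS81.

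Histone peaks were scarce at the members on either matrix. No peak of any of the 10 histone lists overlapped 1530 of the 1690 regions (90.5%, 89.0 to 91.8), compared with 60.2% of all p-JUN regions and 66.2% of soft-only regions. H3K27ac, the mark of active enhancers and promoters, overlapped 68 members (4.02%, 3.19 to 5.07) on soft matrix and 60 (3.55%, 2.77 to 4.54) on stiff matrix. The difference, stiff minus soft, was −0.473 percentage points. There was 1 list per matrix, so this has no replicate check and no spread between libraries can be given. The shares over all p-JUN regions were 26.9% on soft and 20.1% on stiff, and the H3K27ac list itself was shorter on stiff (13322 peaks) than on soft (18238). At soft-only regions the same shares were 14.2% and 6.47%. Widening the search to 10 kb found H3K27ac near 21.5% of members on soft and 19.1% on stiff, against 41.6% and 32.7% of all p-JUN regions.

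H3K4me3, which marks active start sites, overlapped 3.49% and 3.31% of members in the soft libraries and 3.61% of members in each stiff library. The soft libraries averaged 3.40% ± 0.126 (SD, n = 2), the stiff libraries 3.61% ± 0.00 (SD, n = 2), and the groups did not overlap. The difference of 0.207 percentage points had a two-sided exact permutation p of 0.33, the smallest that 2 against 2 libraries allow. In the same libraries, 20.1% to 21.4% of all p-JUN regions overlapped H3K4me3. H3K27me3, the Polycomb mark of silenced genes, overlapped 0.828% and 0.414% of members on soft and 0.355% and 0.237% on stiff. Its difference of −0.325 percentage points, from a soft mean of 0.621% ± 0.293 (SD, n = 2) to a stiff mean of 0.296% ± 0.0837 (SD, n = 2), likewise had an exact permutation p of 0.33. The soft H3K27me3 lists were of unequal length, 19843 and 9228 peaks, against 7104 and 6974 on stiff, and the part of list length in this difference was not tested. Over all p-JUN regions, H3K27me3 overlapped 1.09% and 0.596% on soft and 0.602% and 0.622% on stiff, a difference of −0.231 percentage points. At soft-only regions the shares were 2.63% and 1.31% on soft and 1.41% and 1.59% on stiff, a difference of −0.469. A lower mean on stiff was therefore not particular to members. In soft-only and in all p-JUN regions, however, soft replicate 2 lay below both stiff libraries, whereas in members both stiff libraries lay below both soft ones.

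**Figure D3:**
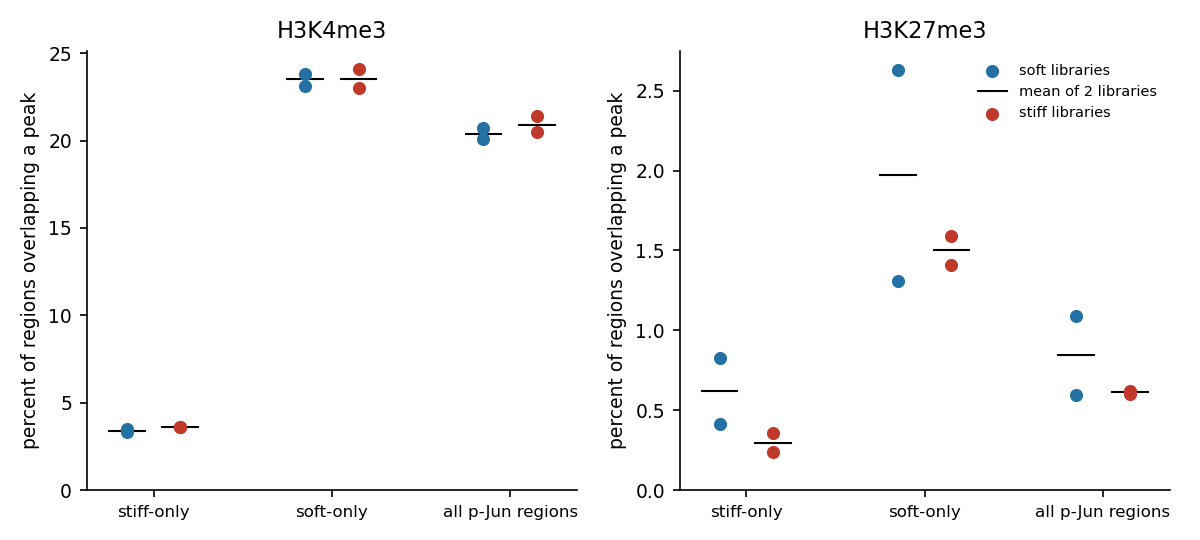
Percent of regions overlapping an H3K4me3 (left) or H3K27me3 (right) peak of each library (points; blue soft, red stiff, black line the mean of 2 libraries) for stiff-only, soft-only and all p-JUN regions. For H3K4me3 the 4 stiff-only points lie between 3.31% and 3.61%, below those of all p-JUN regions.

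The few acetylated members were divided among patterns. H3K27ac was present on both matrices at 29 members (1.72%), on stiff alone at 31 (1.83%) and on soft alone at 39 (2.31%). Over all p-JUN regions these shares were 17.2%, 2.88% and 9.64%. The best ranked with H3K27ac on stiff alone was the ARAP3 intron, in a gene for a GTPase-activating protein, with 186 and 214 fragments over a background of 43.2 and 47.2. It was also the tallest member by fragments. The second was in an intron of CDK14, a kinase gene with a role in WNT signalling, with 54 and 49 fragments over 2.87 and 2.76 and the nearest soft peak 44.6 kb away. Among the 31, 5 lay within 1 kb of a start site, 4 held an AP-1 site and 5 a TEAD site. Of the members acetylated on both matrices, the best ranked were in introns of MYPN, which encodes the sarcomere protein myopalladin (37 and 60 fragments), and of TRPM3, a cation channel gene (38 and 62). H3K27me3 touched 17 members in at least 1 library (1.01%, against 1.28% of all p-JUN regions). Of the 17, 9 were touched in soft replicate 1 alone and 2 in every library. Those with the best rank lay between genes, nearest to SULF2, an extracellular heparan sulfatase gene (56 and 68 fragments), and to IRX4, a homeobox gene of the heart ventricle (36 and 54).

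The DNA under the summits held fewer AP-1 sites and more TEAD sites than p-JUN regions at large. An AP-1 site had its centre within 50 bp of the summit in 403 of 1690 members (23.8%, 21.9 to 25.9), and the share 1 kb to either side was 1.80%. Over all p-JUN regions the AP-1 share was 30.6%, for soft-only regions 25.7% and for regions called in all 4 lists 34.8%. A TEAD site was present in 223 members (13.2%, 11.7 to 14.9) against 5.50% at their flanks. For soft-only regions the TEAD share was 5.53% (4.31 to 7.07) against 5.63% at the flanks, and over all p-JUN regions it was 9.67% against 5.66%. Both sites occurred together in 43 members, and 180 had a TEAD site with no AP-1 site (10.7%, against 6.64% over all p-JUN regions). With sites counted within 100 bp, the TEAD shares were 23.1% for members, 11.7% for soft-only and 17.5% for all regions, and the AP-1 shares 33.9%, 34.1% and 41.2%.

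The TEAD share followed the number of lists of each matrix that called a region. It was 13.2% for regions in both stiff and no soft list, 11.4% of 3275 regions in both stiff lists and 1 soft list, 9.99% of regions in all 4, 7.72% of 2993 regions in 1 stiff and both soft lists, and 5.53% for soft-only regions. The promoter shares of these groups were 4.44%, 9.68%, 17.2%, 31.4% and 20.4%. Among summits more than 1 kb from a start site the TEAD shares were 13.5%, 12%, 11%, 9.20% and 6.24%. The AP-1 share had no such order, being highest for regions in all 4 lists on either count. The members' TEAD share depended on both stiff libraries, being 10.9% when stiff replicate 1 was left out and 10.5% when stiff replicate 2 was left out, close to the 9.67% of all regions. Among regions called in all 4 lists, whose heights the rule did not use, the median log2 ratio of stiff to soft summit fragments was 0.09 for the 4038 with a TEAD site and 0.00 for the 36395 without one. For AP-1 the medians were −0.01 with and 0.01 without a site. The middle 50% of each of these groups spanned 0, and the heights come from the same 4 libraries that chose the members.

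**Figure D4:**
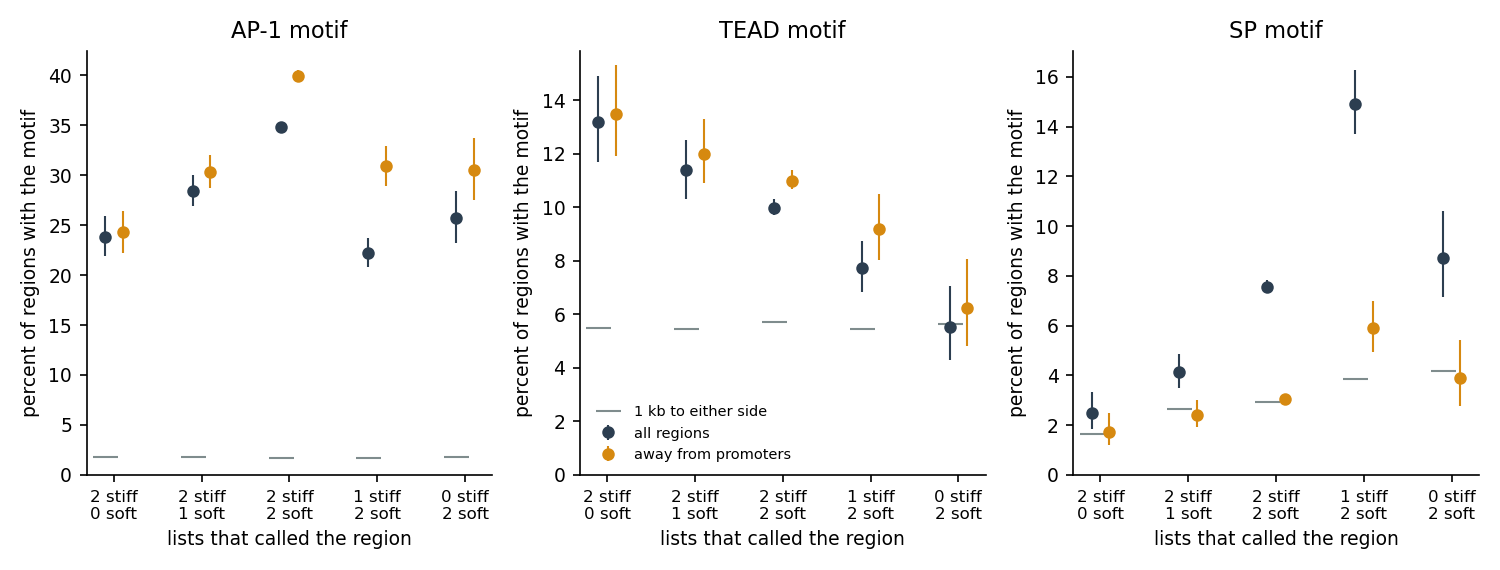
Percent of regions (y axis) with an AP-1, TEAD or SP site within 50 bp of the summit, by the number of stiff and soft lists that called the region (x axis), for all regions (dark points) and those away from promoters (orange), with 95% Wilson intervals covering counting error only and grey dashes for positions 1 kb to either side. The TEAD points fall from 13.2% at the left to 5.53% at the right, where they meet the flank level.

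Among the other sites searched, the E-box CAGCTG was present in 7.28% of members against 4.38% at their flanks, near the 7.13% of all p-JUN regions, and the RUNX site TGTGGT in 9.35% against 8.25%. SP sites (GGGCGG), common in CpG-rich promoters, were present in 2.49% of members, 8.72% of soft-only regions and 7.69% of all regions, and this gap narrowed away from promoters, where members and soft-only regions had 1.73% and 3.89%. The CEBP site TTGCNNAA was found in 5.86% of members and 4.46% of all regions, the NFI site TTGGCA in 5.56% and 5.52%, and the FOX site TGTTTAC in 1.66% and 1.39%. Sites common at promoters or insulators were scarcer in members, with the CTCF core CCAGNNGGC in 1.89% against 2.81% and the ETS site CCGGAAG in 0.118% against 1.14%. The CRE was found in 0.533% against 0.718%, the SRF CArG box in 0.592% against 0.531% and the NRF1 site GCATGCGC in 0 of 1690 members against 0.264% of all regions. Both strands were searched, different sites may share bases, and a match describes letters and not occupancy.

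The motif content also varied with rank among the members. In the best ranked 423 regions (median summits of 40 and 48 fragments) 28.8% held an AP-1 and 16.3% a TEAD site, and 2.36% lay at promoters. In the lowest ranked 422 regions (22 and 23 fragments) these shares were 19.2%, 11.1% and 7.82%. Between them the AP-1 share was 22.7% and then 24.6%, and the TEAD share 14.5% and then 10.9%, so neither fell at every step. In the 986 low-background members the AP-1 and TEAD shares, 23.1% and 13.3%, were near those of the whole set.

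The best ranked member was in an intron of CAMK2D, which encodes the delta chain of the calcium and calmodulin-dependent kinase II, 22.0 kb from a start site, with 98 and 121 fragments over backgrounds of 7.26 and 7.80 and an AP-1 site 15 bp from the summit. Next came an intron of MRC1, the macrophage mannose receptor gene, with 70 and 77 fragments over 3.05 and 3.16, the highest folds among the 8 best at 17.5 and 18.8. A region 247 kb from CD109, which encodes a surface protein known to bind TGF-beta, held 63 and 77 fragments. Of these, MRC1 and CD109 stood on a background near the members' median, and CAMK2D on one above it.
The fourth lay 149 kb from FST, the gene of the activin antagonist follistatin (83 and 111 fragments), and the fifth 228 kb from ANKRD50 (129 and 171), with a soft peak 0.556 kb away. After G3BP2 and ARAP3 came an intron of FOXO3, a transcription factor gene of the insulin pathway, with 140 and 170 fragments over 25.9 and 30.3 and a soft peak 0.755 kb away. Of these 8, ARAP3 alone overlapped an H3K27ac peak and none an H3K4me3 peak.

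Some members resemble one another in sequence and are not independent of each other. For 76 of 1690 (4.50%), the bases within 100 bp of the summit matched another member, in 18 families of up to 28 regions. The closest pair ranked 9 and 10, nearest to SEPTIN14 and NUPR2 on chromosome 7, with 59 and 75 fragments at the first and 56 and 73 at the second, and was identical over 195 bases. Reads from such copies could be placed at either.

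Gene functions were read from lists of genes. A region was given to the protein-coding genes it overlapped or, failing that, to the gene with the nearest start site, so that many assignments span over 100 kb. By this rule 1472 of 15354 genes with a p-JUN region held at least 1 stiff-only region (9.59%), and these were long, with a median length of 90.6 kb against 35.7 kb, and held a median of 7 p-JUN regions against 2. Shares of regions are therefore given beside shares of genes. The stiff-only share of a list's p-JUN regions ran from 0.826% to 4.71%, around the 2.75% of all p-JUN regions.

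**Figure D5:**
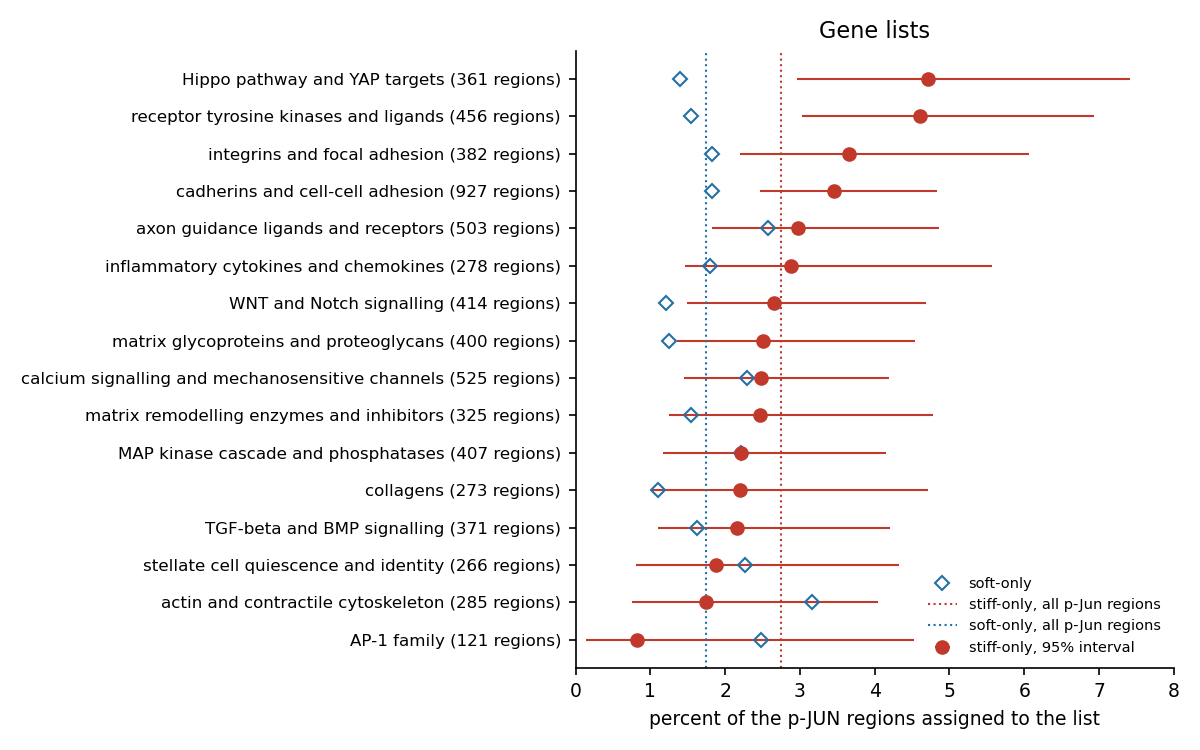
Percent (x axis) of the p-JUN regions assigned to each gene list (y axis, with the number of regions) that were stiff-only (red points with 95% Wilson intervals covering counting error only) or soft-only (blue diamonds), with dotted lines at the shares of all p-JUN regions, 2.75% and 1.74%. The Hippo pathway and receptor tyrosine kinase lists have the highest red points, at 4.71% and 4.61%, and no list was tested.

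The highest share was in the list of the Hippo pathway and its YAP targets, the kinase cascade that restrains YAP and TAZ. Of its 361 p-JUN regions 17 (4.71%, 2.96 to 7.41) were stiff-only and 5 (1.39%) soft-only, and 12 of its 34 genes with a p-JUN region held one. CRIM1, which encodes a membrane protein that binds BMPs, had 3 of 32 regions, with 28 to 36 fragments in both libraries. VGLL4, a TEAD-binding corepressor gene, had 2 of 12, both in introns, with 28 and 27 fragments in stiff replicate 1 and 36 and 27 in stiff replicate 2. DLC1 and ASAP1, both genes of GTPase-activating proteins, had 2 of 37 and 2 of 42. Named after their values were seen, TEAD1, LATS2, AMOTL1 and AMOTL2 had 1 each. CCN2, the canonical YAP target that encodes a connective tissue growth factor, had 1 of its 17 regions, 12.9 kb from its start, with 19 and 18 fragments, and ranked 1570 of 1690.

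Receptor tyrosine kinases and their ligands came next, with 21 of 456 regions (4.61%, 3.03 to 6.94) stiff-only and 7 (1.54%) soft-only, in 18 of 44 genes (40.9%). FGFR2, a fibroblast growth factor receptor gene, had 2 of 6, with 30 and 20 fragments in stiff replicate 1 and 40 and 33 in stiff replicate 2. IGF1, the insulin-like growth factor gene, had 2 of 10 and NTRK3, a neurotrophin receptor gene, 2 of 44. Named after its values were seen, PDGFC, a ligand gene of the PDGF receptors through which stellate cells proliferate, had the tallest of the list in an intron, with 164 and 180 fragments over backgrounds of 51.2 and 53.8 and an AP-1 site.

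Adhesion genes followed. Integrins and focal adhesion had 14 of 382 regions stiff-only (3.66%, 2.20 to 6.06) and 7 (1.83%) soft-only, and 9 of the 14 belonged to 3 genes with 3 each: TNS1, the tensin gene, LPP, which encodes a LIM protein of focal adhesions, and NEDD9, which encodes a scaffold of FAK and SRC signalling. At NEDD9 these were 3 of 19 regions, with 49, 29 and 77 fragments in stiff replicate 1 and 61, 37 and 67 in stiff replicate 2. Cadherins and cell-cell adhesion genes had 32 of 927 (3.45%, 2.46 to 4.83) stiff-only and 17 (1.83%) soft-only. The stiff-only regions were in 19 of 46 genes, though the median length of the list's genes was 224 kb. CDH11, the mesenchymal cadherin gene, had 3 of 30, 1 of them 0.103 kb from its start with 25 and 30 fragments. FAT3 had 3 of 22, all in introns, and CDH4 and NCAM2 had 3 of 42 each. CDH9 (of 103 regions), CDH10 (of 55), PCDH7 (of 55), FAT1 (of 20) and ALCAM (of 24) had 2 each. Those of CDH9 lay 1840 and 818 kb from its start site, and 5 other regions of CDH9 were soft-only. NCAM2 had 3 soft-only regions as well, and the other cadherin and cell-cell adhesion genes named here had 0.

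Matrix genes were near the background. Collagens had 6 of 273 regions stiff-only (2.20%) and 3 soft-only, with COL8A1, a short-chain collagen gene of vessel walls, the one gene holding 2 (26 and 19 fragments in stiff replicate 1, 25 and 30 in stiff replicate 2). Matrix glycoproteins and proteoglycans had 10 of 400 (2.5%), with 3 of 32 at THBS1, the gene of the TGF-beta-activating thrombospondin, and 2 each at the glypican genes GPC5 and GPC6. Matrix remodelling enzymes had 8 of 325 (2.46%), with 2 of 4 at ADAMTS2, the procollagen propeptidase gene, both overlapping an H3K27ac peak. Neither was among the 31 members with H3K27ac on stiff alone. DCN, named after its values were seen, encodes decorin. Its single p-JUN region was stiff-only, overlapped an exon 2.00 kb from a start site and held 38 and 42 fragments, with the nearest soft peak 235 kb away. Of 9 genes that the study names, as fibrosis markers or as examples of its loci, IGFBP3 had 2 stiff-only of 31 regions (32 and 38 fragments at the first, 45 and 49 at the second) and COL8A1 2 of 27. ACTA2, VCAN, MMP2, MMP9, ACTG2, ITGB2 and TIMP4 had 0, among 1 to 5 p-JUN regions each, and 1 of the 2 regions of ACTG2 was soft-only.

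The signalling lists were spread about the background of 2.75%. TGF-beta and BMP signalling had 8 of 371 (2.16%), with 2 of 26 at TGFB2, a TGF-beta ligand gene (75 and 24 fragments in stiff replicate 1, 72 and 28 in stiff replicate 2). WNT and Notch signalling had 11 of 414 (2.66%), with 2 of 20 at TCF7L2, a nuclear effector of WNT, and 2 of 26 at the corepressor gene TLE4. Calcium signalling and mechanosensitive channels had 13 of 525 (2.48%), with 3 of 30 at SLC8A1, the sodium-calcium exchanger gene. Axon guidance genes had 15 of 503 (2.98%), with 4 of 37 at SLIT2, 2 of 18 at SLIT3 and 2 of 14 at their receptor gene ROBO2.
MAP kinase cascade genes had 9 of 407 (2.21%), in 9 genes, and inflammatory cytokines 8 of 278 (2.88%), with 2 of 24 at IL15. Below the background stood stellate cell quiescence and identity genes with 5 of 266 (1.88%), and the actin and contractile cytoskeleton with 5 of 285 stiff-only (1.75%) and 9 (3.16%) soft-only. The AP-1 family genes themselves had 1 stiff-only region of 121 (0.826%, 0.146 to 4.53) and 3 (2.48%) soft-only. Soft-only regions made up 1.62% of the TGF-beta list, 1.21% of WNT and Notch, 2.29% of calcium signalling and 2.58% of axon guidance. For MAP kinase, inflammatory and quiescence genes the soft-only shares were 2.21%, 1.8% and 2.26%, beside 1.74% of all p-JUN regions. The intervals of these lists treat regions as independent, although some genes held several. They allow neither for this nor for the number of lists, and no list was tested against 2.75%.

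The genes with the most stiff-only regions held 4: SEL1L, of endoplasmic reticulum degradation (4 of 15 p-JUN regions), BRINP1, a neuronal gene (4 of 16), PRKX, an X-linked protein kinase gene (4 of 19), GRIN2A, a glutamate receptor gene (4 of 27), CAMK1G, a calmodulin-dependent kinase gene (4 of 34), and SLIT2. After them came genes with 3, led by CSMD2 (3 of 5), CXCL13, a B-cell chemokine gene (3 of 7), PRICKLE1, of planar cell polarity (3 of 7), and TMEM108 (3 of 9). In all, 1245 genes held 1, 184 held 2, 37 held 3 and 6 held 4. The 4 of SEL1L lay 1190 to 1940 kb from its start, with 18 to 33 fragments in stiff replicate 1 and 20 to 36 in stiff replicate 2.

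Most stiff-only sites had no other one nearby, and the share that did was near that of p-JUN regions at large. Another stiff-only region lay within 100 kb of 314 members (18.6%, 16.8 to 20.5), and a stiff-only region lay within 100 kb of 16.6% of all p-JUN regions and 14.4% of soft-only regions. At 50 kb the shares were 10.7%, 9.33% and 7.60%, and at 250 kb they were 33.2%, 33.7% and 34.4%. For regions called in all 4 lists the share within 100 kb was 16.8%. Chaining members with gaps of up to 100 kb left 1376 alone, 142 pairs and 10 groups of 3, with none larger. The shortest group of 3 spanned 23 kb between genes on chromosome 12, 356 to 378 kb from PRICKLE1, and held 23, 43 and 35 fragments in stiff replicate 1 and 27, 82 and 37 in stiff replicate 2. It contained 1 other p-JUN region and 0 called in all 4 lists. The second spanned 43.3 kb of SLC14A2, a urea transporter gene, from its promoter into the gene (19, 30 and 17 fragments, then 19, 36 and 24). The next lay 180 to 234 kb from CAMK1G within 55.1 kb (25, 26 and 48, then 23, 26 and 44) among 9 p-JUN regions, 3 of them called in all 4 lists. None of the 10 groups contained a soft-only region, but each held only 4 to 16 p-JUN regions. Among all p-JUN regions 1.74% were soft-only.

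The region next to a member was usually one found on both matrices. The nearest p-JUN region was called in all 4 lists for 1121 members (66.3%), was itself stiff-only for 60 (3.55%) and soft-only for 22 (1.30%), at a median distance of 8.23 kb. For regions called in all 4 lists the corresponding shares were 66.7%, 2.82% and 1.60%. Regions called in all 4 lists had a median log2 ratio of stiff to soft summit fragments of 0.07 within 10 kb of a member (978 regions, 62.0% above 0), 0.04 at 10 to 50 kb, 0.02 at 50 to 100 kb and 0.00 beyond 100 kb (33646 regions, 49.6% above 0). The step is small beside the middle 50% of these regions, which ran from −0.10 to 0.24 within 10 kb. These heights come from the same 4 libraries that chose the members, so the step is a description only. No ratio near soft-only regions is given for comparison. Among chromosomes 1 to 22 and X, the stiff-only share ran from 1.97% of p-JUN regions on chromosome 21 to 3.6% on chromosome 4, with 3.52% on 13 and 3.38% on X.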

How the data were processed

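Per the labels and the study's methods, the authors trimmed reads with Trim Galore, aligned them to hg19 with Bowtie2 and marked duplicates with Picard. The peak names point to MACS2, whose version and options for these lists are not given in the sources used here. Each deposited list gives peak positions, a score, a fold over local background, −log10 p and −log10 q, with no read counts. The score was the integer part of 10 times −log10 q in at least 99.99% of p-JUN peaks. Summit fragments k and local background were solved from the deposited fold, taken as k plus 1 over background plus 1, and the −log10 of a Poisson tail; within a relative error of 1e-04 all p-JUN peaks gave whole numbers (100.0% in each list), against at most 1.82% with the tail including k. H3K27ac replicates had been merged before deposit.

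Lists were joined at 1 bp on 24 chromosomes. The steps were tested on simulated data with planted regions, motifs and fragment numbers. Genes and start sites were from GENCODE 44 (lifted to GRCh37), with 20162 protein-coding genes, and sequence from GRCh37. Summits were assigned in the order promoter (within 1 kb), exon, intron, intergenic. Histone overlap was compared over libraries by a two-sided exact permutation test, main fit without pairing. Intervals are Wilson 95% intervals over regions, which cover counting error only. Similar sequences were found with blastn 2.17.0 at an E value of at most 1e-10. Python 3.11.15, pandas 2.3.3, scipy 1.17.1 and pysam 0.24.0 were used.

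Members were ranked by the mean over both stiff lists of their rank by −log10 q. The text names the best 8, the best 2 with each histone or promoter context, 3 groups of neighbouring members (by number, then by shorter span), the 10 genes with most members, each listed gene with at least 2 (or 1 where 4 or fewer genes of a list had any) and 9 genes that the study names; others are marked as named after their values were seen. Gene lists share some genes, and some items that met these rules are not reported here. The members, gene lists, motifs and rules were chosen with earlier results of these data known. Alternatives tried were the overlap, peak threshold, list length, a margin to soft peaks, windows, distances, histone thresholds and leaving out each library.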

Additional observations from a re-analysis of the deposited data

How the results depend on the processing

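Leaving out 1 p-JUN library loosens the rule to fewer lists, so counts grow by construction. The 1690 members became 2717 to 5340, the promoter share ran from 4.65% to 12.2% (highest without stiff replicate 1, where the members are those of stiff replicate 2 alone), the AP-1 share from 19.3% to 26.7%, the share with another member within 100 kb from 26.8% to 42.5%, the H3K27ac difference from −1.21 to −1.01 percentage points, and, with histone libraries left out too, the H3K4me3 difference from 0.0184 to 0.356 and the H3K27me3 difference from −0.534 to −0.118. The TEAD share ran from 10.5% to 12.5%. Reciprocal overlap of 50% gave a promoter share of 6.29% and a neighbour share of 21.7%. A promoter window of 2.5 kb gave 8.34%, a motif window of 100 bp an AP-1 share of 33.9% and a TEAD share of 23.1%, and neighbour distances of 50 and 250 kb gave 10.7% and 33.2%. Keeping members with a background under 4 in both stiff lists, an alternative added after seeing the data, left 986 regions, a promoter share of 3.45% and a neighbour share of 12.3%. With p-JUN peaks of −log10 q of at least 10, the H3K4me3 difference was 0.0 percentage points. The cause was not tested. The remaining alternatives, among them equal list lengths, a 1 kb margin to soft peaks, other histone thresholds and, added after seeing the data, members without similar sequence, moved no share outside its 95% interval and turned no difference. With the replicate number as a replicate block the paired differences were 0.207 for H3K4me3 and −0.325 for H3K27me3, each with an exact sign-flip p of 0.5, the smallest that 2 pairs allow; H3K27ac had no replicates to pair.

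Depth limits what the calls show: the members' median summits were 28 and 33 fragments, where soft peaks on a background of 3 to 3.5 start at 16, and a soft library that just missed a call cannot be told apart from one without signal.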
